A study of Callithrix jacchus with 54 samples.

Results

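The genes of the NODAL axis and of the mesendoderm were followed in the common marmoset (Callithrix jacchus) while embryonic stem cells (cjESCs) were taken to primordial germ cell-like cells (cjPGCLCs). These genes were chosen by their names, with earlier results of these data known, and of the 10 on the list 9 were followed among the 14812 genes of the table. They were the ligands NODAL (gene ID 100406643) and GDF3 (100394876), the secreted antagonist CER1 (100410143), and the transcription factors MIXL1 (100405816), EOMES (100401577), LHX1 (100392549), GSC (100390778), FOXA2 (118142764) and GATA6 (100398286). GATA4, the remaining gene of the list, was not analysed here.

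NODAL is a secreted ligand of the TGF-beta family that signals through activin receptors, with TDGF1 as its coreceptor, to the intracellular mediators SMAD2 and SMAD3, which act on DNA together with partners such as FOXH1. The pathway switches on the NODAL gene itself and, as negative feedback, secreted antagonists such as CER1. In the gastrulating embryo, NODAL acts with WNT and BMP signals to turn epiblast cells into the primitive streak and then into mesoderm and definitive endoderm, and activin A, a component of many primate stem cell media, uses the same receptors.

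RNA was sequenced from 27 conditions in biological duplicate, 54 libraries in all, from derivatives of a single cjESC line, CMES40, all carrying the reporters BLIMP1-tdTomato and NANOS3-eGFP. cjESCs were kept on mouse feeder cells in DK20FA or in PESFA, which both contain bFGF and activin A, and their TRA-1-60-positive cells were taken by sorting. The DK20FA cells, and the cultures started from them, belonged to a line grown from picked colonies that also carries the transgenes rtTA, tetO-BLIMP1, SOX17-GR and DD-TFAP2C, whereas the PESFA cells and their derivatives are labelled wild type apart from the reporters. From DK20FA, cells were induced with BMP4, LIF, SCF and EGF (BLSE), with the same factors plus enforced SOX17 from the SOX17-GR transgene, human SOX17 fused to the glucocorticoid receptor and activated with dexamethasone (SOX17 + BLSE), or with SOX17 but no BMP4 (SOX17 + LSE), and were collected at 12, 24, 48 and 96 h. From PESFA, cells were first treated for 24 h with IM12, an inhibitor of the kinase GSK3, and activin A (pre-treated cells, sorted for TRA-1-60). They were then induced in BLSE with IWR1, an inhibitor of WNT signalling, without or with BMS493, an inverse agonist of the retinoic acid receptors (BLSE + IWR1 and BLSE + IWR1 + BMS), for the same times. The BLSE + IWR1 culture was also taken at day 6, and day 6 cjPGCLCs aggregated with mouse gonadal somatic cells into xenogeneic reconstituted ovaries (xrOvaries) were taken at days 20, 40 and 70. All inductions contained Rock inhibitor. Cells at 12 to 48 h, and BLSE cells at 96 h, were taken whole, while the other 96 h cells and all later cells were sorted for tdTomato, so that a difference from the cjESCs or the pre-treated cells, between 48 h and 96 h, or between BLSE and the other cultures at 96 h, holds the sort as well as the time or treatment.

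Values are TPM, a level scaled for transcript length and for the library total, from the authors, and differences are on the log2(TPM + 1) scale, which understates the change of low genes. A gene is said to rise, fall or change where limma gave a Benjamini-Hochberg adjusted p under 0.01 over the 11197 genes that reached a log2 value of 1.5 in at least 1 library; all 9 genes did. With 2 libraries against 2, an exact permutation test could not go below p = 0.33, so each p draws on a spread estimated from all 27 conditions together. That 0.33 is also how often 2 libraries against 2 fail to overlap where nothing differs. The share over all genes is not given for such separation, nor for counts at an unadjusted p under 0.05. The labels were checked against markers. SOX17 stood at 64.6 and 62.7 TPM in BLSE at 12 h and at 164 and 168 TPM in SOX17 + BLSE, and whether reads of the human transgene count toward the marmoset gene was not tested. The summed TPM of 8 pluripotency genes lay between 5604.7 and 6724.36 in the cjESCs, and the summed TPM of 8 primordial germ cell genes lay between 2799.66 and 3798.71 in the sorted SOX17 cultures at 96 h against 260.2 and 299.11 in BLSE. The libraries held 10146 to 12688 genes above 0. The 2 libraries of BLSE + IWR1 + BMS at 48 h stood apart in these genes and entered the pooled spread, and the calls that came only without them are given for the comparisons described. The model without them was added after seeing the data. Leaving out a pair that these genes split narrows their spread and so favours calls among them. Calls that came only from that model are given as a description and not as support. In bulk samples, fewer cells of a type and less RNA per cell cannot be told apart.

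**Figure D1:**
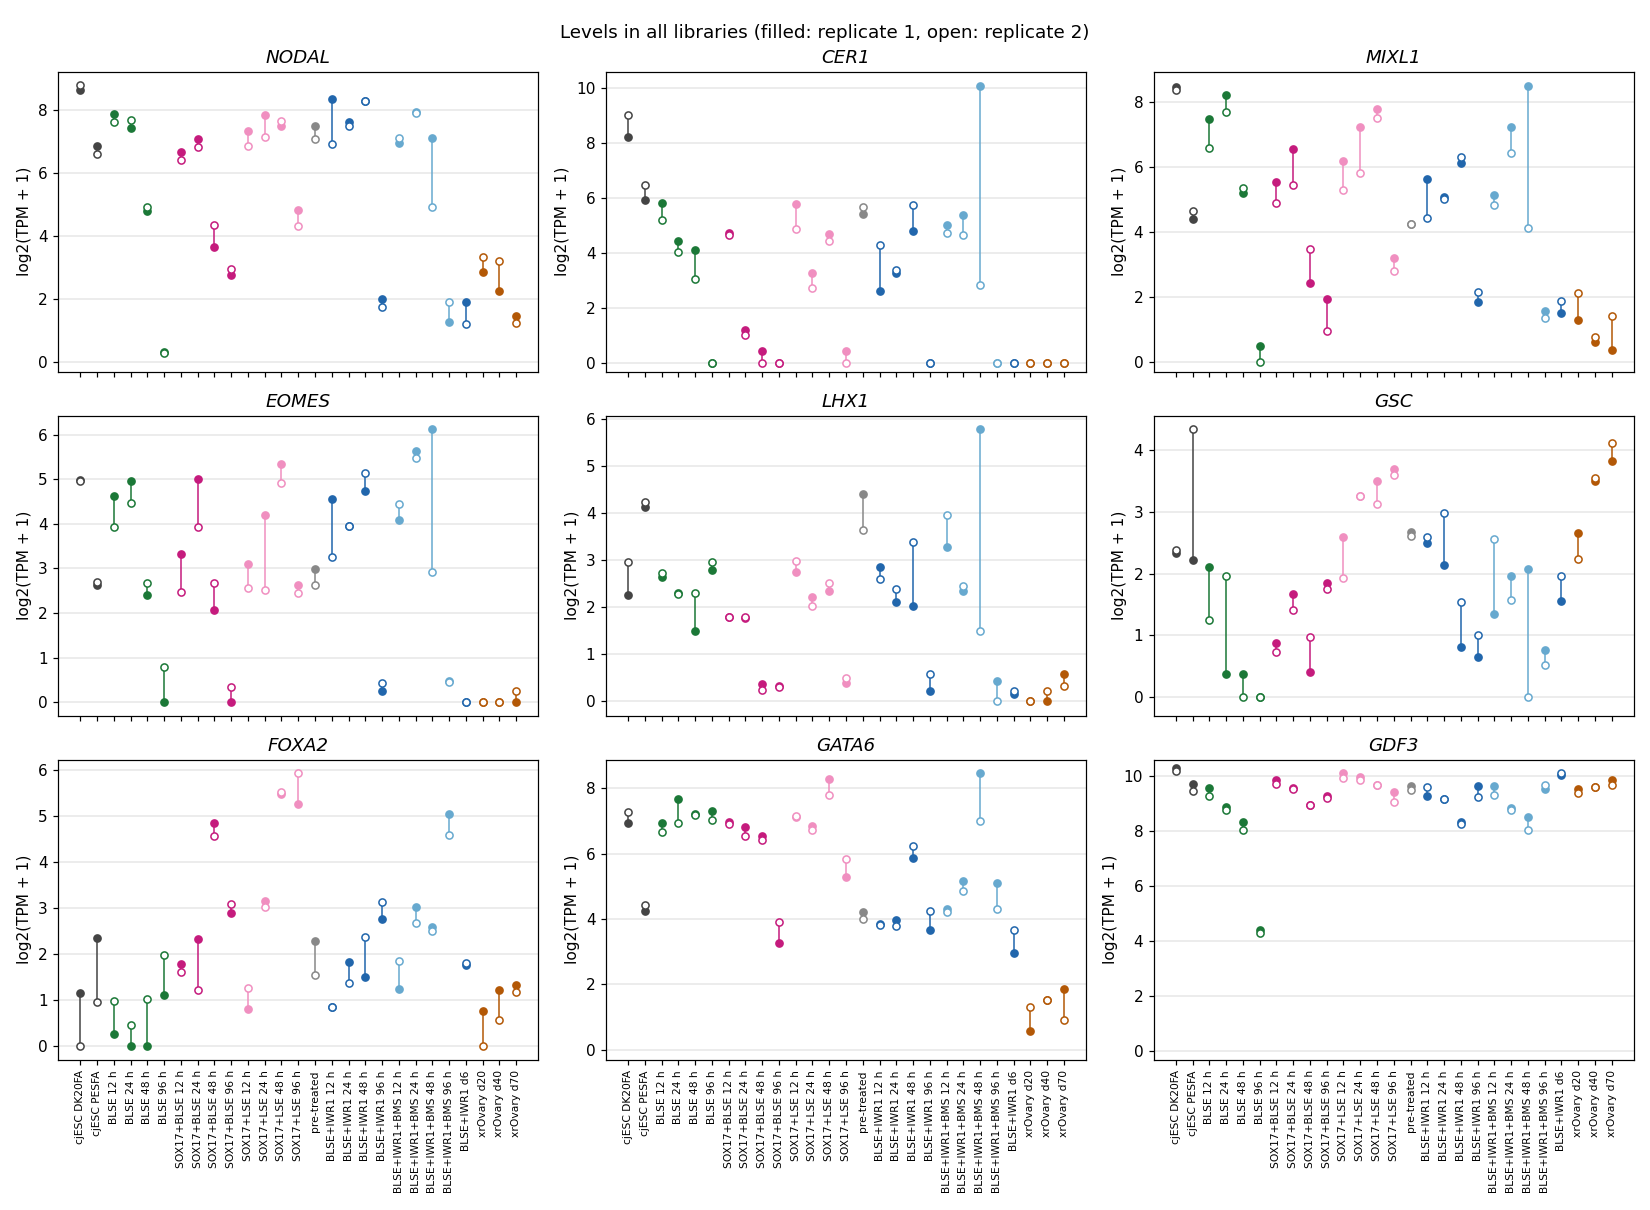
Level of each of the 9 genes, as log2(TPM + 1), in every library of the 27 conditions, with replicate 1 filled, replicate 2 open and a line joining the pair. NODAL, CER1, MIXL1 and EOMES are high in the DK20FA cjESCs and at most 27.1 TPM at 96 h and later, the mean of GSC is highest at day 70, and the widest gap within a pair is that of CER1 at 48 h in BLSE + IWR1 + BMS.

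The starting cells differed. In PESFA, 5 of the 9 genes were lower than in DK20FA and none was higher, where 8.73% of all genes tested were lower and 8.09% higher. NODAL stood at 390.4 and 438 TPM in the DK20FA libraries and at 116 and 96.8 TPM in the PESFA libraries, and it was lower, with a difference of -1.96 ± 0.40 (SE, adjusted p = 0.000327) on the log2 scale. MIXL1, a homeobox gene of the primitive streak, stood at 353 and 326 TPM against 20.1 and 24.2 TPM. Its difference of -3.88 ± 0.67 (SE, adjusted p = 3.32e-05) was the largest of the 9. GATA6, a factor of endoderm and cardiac mesoderm, went from 122 and 154 to 17.8 and 20.5 TPM, a difference of -2.78 ± 0.33 (SE, adjusted p = 4.26e-08). EOMES, the T-box factor that drives endoderm and mesoderm from the streak, read 30.6 and 29.98 against 5.15 and 5.45 TPM and differed by -2.31 ± 0.54 (SE, adjusted p = 0.00142). GDF3, a ligand related to NODAL and abundant in pluripotent cells, read 1259.5 and 1161 against 835 and 699 TPM and differed by -0.66 ± 0.14 (SE, adjusted p = 0.000356). For all 5 genes the libraries of the media did not overlap.

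CER1 read 297 and 515 TPM in DK20FA and 60.5 and 89.1 TPM in PESFA, and LHX1, a homeobox gene of the organizer and node, read 3.82 and 6.85 against 16.5 and 17.7 TPM. In neither case did the media overlap, yet neither passed the test (adjusted p = 0.0535 and 0.0466). Both genes differed widely between the 2 libraries of BLSE + IWR1 + BMS at 48 h, which enter the spread. Without that pair in the model, CER1 was lower in PESFA (adjusted p = 8.23e-06), LHX1 was higher (adjusted p = 0.000193), and 7 of the 9 genes changed, beside 16.8% of all genes. GSC, another organizer gene, differed over 4-fold between replicates, at 3.65 and 19.2 TPM in PESFA. The count of 5 fell to 3 without replicate 1 of DK20FA and to 2 without replicate 2 of PESFA. MIXL1 and GATA6 stayed called whichever of the 4 libraries was left out, NODAL was lost without replicate 2 of PESFA (adjusted p = 0.0102), GDF3 without that library or replicate 1 of DK20FA (adjusted p = 0.0106 to 0.0248) and EOMES whichever of the 4 was left out (adjusted p = 0.0115 to 0.0151).

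The medium and the cell line cannot be told apart in this comparison. The summed TPM of 8 fibroblast feeder genes was 215.55 and 252.49 in DK20FA but 1929.05 and 3096.1 in PESFA, with 7 of the 8 higher. Neither its origin in feeder cells nor its part in the result was tested. Among 18 other genes of the NODAL and activin pathway that passed the filter, of 27 listed, 1 was higher in PESFA and 2 were lower. INHBA, which encodes the subunit of activin A, differed by 4.82, the receptor ACVR1B by -1.55 and the proprotein convertase PCSK6 by -1.06. Their median difference was -0.11, beside -0.08 over all genes. Of 19 genes of the streak and definitive endoderm that passed, of 25 listed, 5 were lower in PESFA and 1 was higher, with a median of -0.32. APLNR differed by -3.39, EVX1 by -3.36, TBXT by -2.67 and WNT3A by -2.67, while DKK1, a WNT antagonist, was higher by 2.08.

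Pre-treatment with IM12 and activin A for 24 h moved none of the 9 genes past the threshold, where 0.304% of all genes changed, and none reached an unadjusted p of 0.05 in limma either. NODAL stood at 177 and 135 TPM in the pre-treated cells, above both PESFA libraries, and its difference was 0.54 ± 0.40 (SE, adjusted p = 0.659). No gene of the pathway or streak list changed.

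In BLSE, NODAL, CER1 and the streak factors MIXL1, EOMES and GSC were below the cjESCs by 48 h, whereas GATA6 read much as it had. At 12 h, GDF3 alone of the 9 had changed, where 7.41% of all genes had, and at 24 h GDF3 and CER1 had, where 11.7% had. CER1 fell from 297 and 515 TPM in the cjESCs to 21.1 and 15.4 TPM at 24 h, a difference of -4.36 ± 0.93 (SE, adjusted p = 0.000691). GDF3 read 478 and 436 TPM there, a difference of -1.40 ± 0.14 (SE, adjusted p = 1.2e-09). NODAL, MIXL1 and EOMES did not pass the test at 24 h, with MIXL1 at 294 and 206 TPM. Without the BLSE + IWR1 + BMS pair at 48 h, CER1 was lower than in the cjESCs at 12 h too (adjusted p = 2.76e-07) and NODAL was lower at 24 h (adjusted p = 0.0075). The call of CER1 was lost without replicate 2 of either condition (adjusted p = 0.0143 to 0.0148).

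By 48 h, 6 of the 9 genes were lower than in the cjESCs and none was higher, beside 10% and 9.75% of all genes. NODAL read 26.8 and 29.3 TPM, a difference of -3.84 ± 0.40 (SE, adjusted p = 1.39e-09), and CER1 16.2 and 7.48 TPM, a difference of -5.02 ± 0.93 (SE, adjusted p = 6.24e-05). MIXL1, at 35.98 and 39.99 TPM, had a difference of -3.13 ± 0.67 (SE, adjusted p = 0.000413). NODAL and MIXL1 were below their 24 h levels in both libraries, while the CER1 libraries of the 2 times overlapped. EOMES, at 4.28 and 5.37 TPM, fell by 2.43 ± 0.54 (SE, adjusted p = 0.000636). GSC, at 0.30 and 0 TPM, fell by 2.17 ± 0.51 (SE, adjusted p = 0.00101), and GDF3, at 323 and 265 TPM, by 2.04 ± 0.14 (SE, adjusted p = 2.41e-14). Each of these lay below both cjESC libraries. GATA6 did not pass the test at any of the 4 times, with 148 and 144 TPM at 48 h and 157 and 129.8 TPM at 96 h against 122 and 154 TPM in the cjESCs. FOXA2, the pioneer factor of the endoderm, was at most 2.92 TPM in any BLSE library. LHX1 had a difference of -0.73 ± 0.59 (SE, adjusted p = 0.394) at 48 h. In the model without the BLSE + IWR1 + BMS pair at 48 h, 19.8% of all genes changed in this comparison. Without 1 library, EOMES lost its call where replicate 1 of BLSE was left out (adjusted p = 0.0119), and GSC where replicate 2 of BLSE or either cjESC library was (adjusted p = 0.0101 to 0.0203), and 6 genes were lower without the BLSE + IWR1 + BMS pair at 48 h as well.

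At 96 h in BLSE, 6 genes, again NODAL, GDF3, CER1, MIXL1, EOMES and GSC, were below the cjESCs, where 17.1% of all genes were lower. NODAL stood at 0.24 and 0.22 TPM, -8.40 ± 0.40 (SE, adjusted p = 7.51e-19) from the cjESCs, and CER1 and GSC were listed at 0 in both libraries (adjusted p = 0.000246 for GSC). GDF3 fell to 20.3 and 18.6 TPM, -5.89 ± 0.14 (SE, adjusted p = 7.32e-29) from the cjESCs. LHX1 did not follow them, at 5.95 and 6.76 TPM. In the same cells, 9 of 10 genes of the cardiac and lateral mesoderm list that passed the filter were higher than in the cjESCs and none was lower, with a median difference of 3.96 beside -0.08 over all genes.

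Of the 18 pathway genes, 4 had risen and 4 had fallen in BLSE by 48 h, with a median of -0.42 beside -0.01 over all genes. BAMBI, a pseudoreceptor that dampens TGF-beta signals, rose by 3.44 and SMAD7, an inhibitory SMAD, by 1.27. The coreceptor TDGF1 differed by -2.89, DACT2 by -1.53 and FOXH1 by -1.16. Of the 19 streak and endoderm genes, 4 rose and 4 fell, with a median of 0, among them DKK1 at 3.20 and EVX1 at 2.71 on the one side and FGF8 at -4.73 and TBXT at -3.19 on the other.

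**Figure D2:**
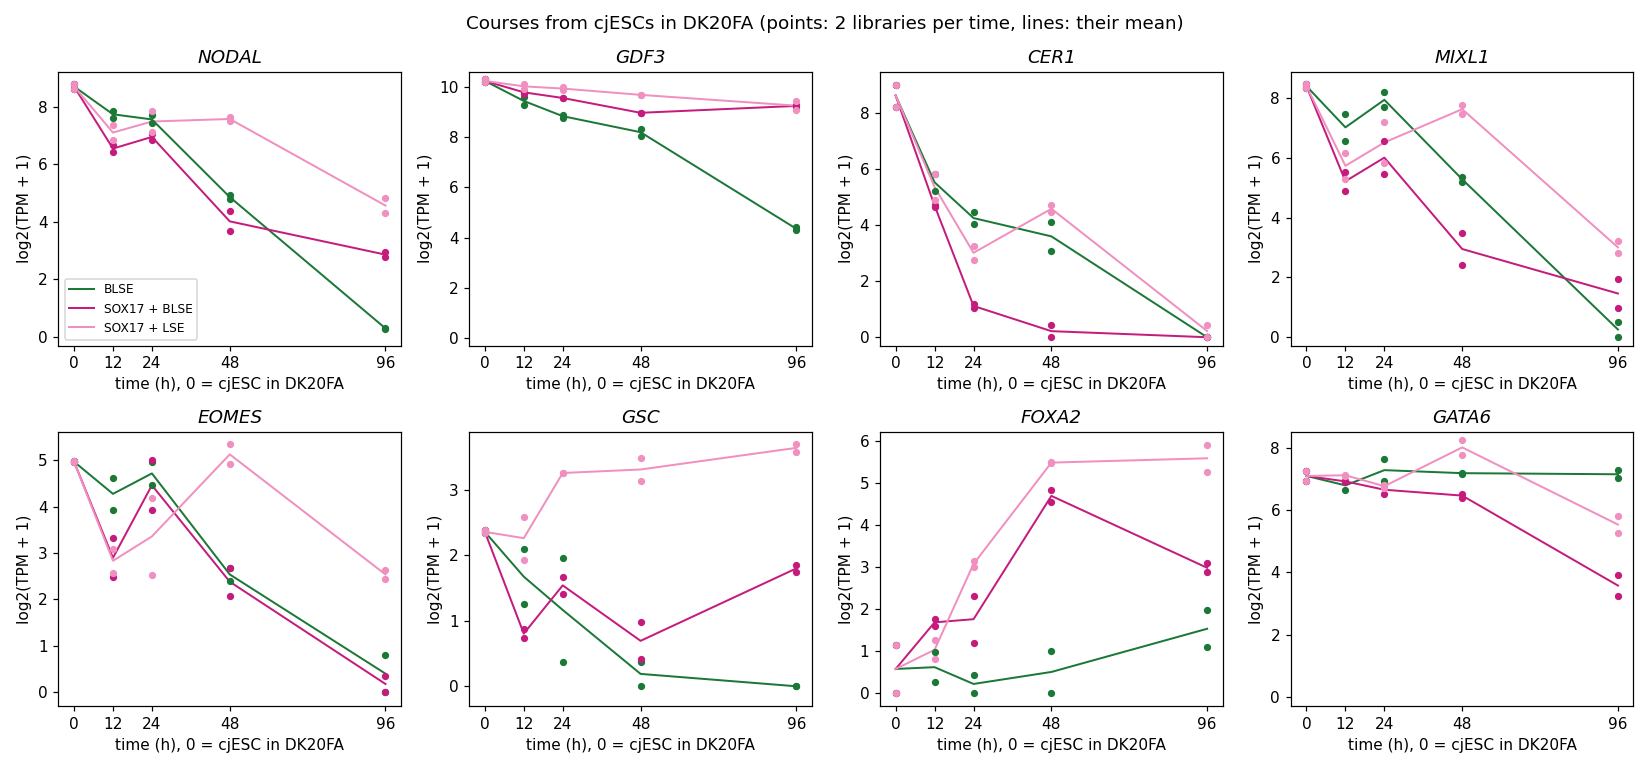
Courses of 8 genes from the DK20FA cjESCs (time 0) through BLSE (green), SOX17 + BLSE (dark pink) and SOX17 + LSE (light pink), as log2(TPM + 1) against time in h, with points for the 2 libraries of a time and lines through their means. Without BMP4, NODAL and MIXL1 lie higher at 48 h than at 12 h, FOXA2 rises with SOX17, and GDF3 at 96 h is at 20.3 and 18.6 TPM in BLSE and at 621 and 591 TPM in the sorted SOX17 + BLSE cells.

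With SOX17 added to BLSE, NODAL was below the cjESCs at 12 h and FOXA2 rose by 48 h. At 12 h, 4 of the 9 genes were lower than in the cjESCs, where 3.92% of all genes were. NODAL read 100.1 and 84.8 TPM, -2.15 ± 0.40 (SE, adjusted p = 0.000167) from the cjESCs, and MIXL1 45.7 and 28.7 TPM, -3.19 ± 0.67 (SE, adjusted p = 0.000745). By 48 h, 7 were lower and 1 was higher, beside 10.6% and 15.8% of all genes. FOXA2, the one that rose, stood at 27.4 and 22.6 TPM against 1.23 and 0 TPM in the cjESCs, a rise of 4.12 ± 0.42 (SE, adjusted p = 8.28e-10). LHX1 read 0.30 and 0.19 TPM, -2.31 ± 0.59 (SE, adjusted p = 0.00197) from the cjESCs. At 96 h, 7 genes were again lower and 1 higher, where 43.2% of all genes changed, and GATA6 had come down to 8.54 and 13.97 TPM, -3.53 ± 0.33 (SE, adjusted p = 3.04e-11). MIXL1 at 12 h lost its call without replicate 1 of the cjESCs or replicate 2 of SOX17 + BLSE (adjusted p = 0.0119 to 0.0233), and LHX1 at 48 h without replicate 2 of the cjESCs or either SOX17 + BLSE library (adjusted p = 0.0139 to 0.0366).

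The SOX17 cultures were then set directly against BLSE at the same time. Dexamethasone was added to enforce SOX17, and no culture with dexamethasone but without SOX17 was sequenced. The 2 therefore cannot be told apart in any of these comparisons, which are named after SOX17. At 12 h, SOX17 had changed none of the 9 by limma, where 2.4% of all genes changed. An unadjusted p under 0.05 was reached by 5 of the 9, a threshold at which the share of all genes is not given. FOXA2 was at 2.41 and 2.04 TPM there, 1.07 ± 0.42 (SE, adjusted p = 0.179) from BLSE. At 24 h GDF3 was higher by 0.72 ± 0.14 (SE, adjusted p = 0.000251), the only call of the 9, beside 7.56% of all genes, and lost without replicate 2 of BLSE (adjusted p = 0.0114). CER1 stood at 1.3 and 1.04 TPM with SOX17 against 21.1 and 15.4 TPM without. The 2 pairs did not overlap, and the difference of -3.13 ± 0.93 (SE, adjusted p = 0.0201) passed only without the BLSE + IWR1 + BMS pair at 48 h (adjusted p = 2.04e-07). Without that pair, MIXL1 was also lower with SOX17, both at 12 h (adjusted p = 0.00823) and at 24 h (adjusted p = 0.00174).

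At 48 h, 2 genes were higher with SOX17 and 2 were lower, beside 10.3% and 6.37% of all genes. FOXA2 read 27.4 and 22.6 TPM with SOX17 and 0 and 1.02 TPM without, a rise of 4.19 ± 0.42 (SE, adjusted p = 1.1e-09). GDF3 read 499 and 502 against 323 and 265 TPM, a rise of 0.77 ± 0.14 (SE, adjusted p = 4.07e-05). The endoderm factor and the pluripotency-linked ligand thus both lay above BLSE in both libraries. CER1 was listed at 0.35 and 0 TPM against 16.2 and 7.48 TPM, a difference of -3.38 ± 0.93 (SE, adjusted p = 0.00617), and MIXL1 read 4.36 and 10.04 against 35.98 and 39.99 TPM, a difference of -2.34 ± 0.67 (SE, adjusted p = 0.00851). Whichever of the 4 libraries was left out, the 2 rises were still called, whereas CER1 (adjusted p = 0.0165 to 0.0797) and MIXL1 (adjusted p = 0.013 to 0.132) were not. NODAL, at 11.7 and 19.6 TPM with SOX17, had a difference of -0.84 ± 0.40 (SE, adjusted p = 0.129), and LHX1 one of -1.58 ± 0.59 (SE, adjusted p = 0.0455). Without the BLSE + IWR1 + BMS pair at 48 h, LHX1 was past the threshold (adjusted p = 0.000142), which makes 5 of the 9 changed, beside 16.7% of all genes. FOXA2 was also the gene of the 9 whose SOX17 effect differed between 48 h and 12 h, by 3.12 ± 0.60 (SE, adjusted p = 0.000946), where 2.46% of all genes differed, a call lost without replicate 2 of BLSE at 12 h or replicate 1 of BLSE at 48 h (adjusted p = 0.011 to 0.014). Without the BLSE + IWR1 + BMS pair, the effect on CER1 differed as well (adjusted p = 0.00221).

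At 96 h, the sorted SOX17 + BLSE cells held 4 of the 9 at higher and 2 at lower levels than the unsorted BLSE cells, beside 29.3% and 16.1% of all genes. GDF3 stood at 621 and 591 TPM against 20.3 and 18.6 TPM, a difference of 4.89 ± 0.14 (SE, adjusted p = 3.57e-26). NODAL, at 5.84 and 6.7 against 0.24 and 0.22 TPM, differed by 2.56 ± 0.40 (SE, adjusted p = 1.37e-06). Although higher than in BLSE, NODAL was under both cjESC libraries. GSC was listed at 0 in both BLSE libraries and read 2.61 and 2.37 TPM with SOX17 (adjusted p = 0.0028), and FOXA2, at 6.36 and 7.51 against 1.14 and 2.92 TPM, was higher by 1.45 ± 0.42 (SE, adjusted p = 0.00386). GATA6 read 8.54 and 13.97 against 157 and 129.8 TPM, a difference of -3.59 ± 0.33 (SE, adjusted p = 1.46e-11), and LHX1, at 0.26 and 0.23 against 5.95 and 6.76 TPM, was lower, with a difference of -2.56 ± 0.59 (SE, adjusted p = 0.000358). GSC lost its call whichever of the 4 libraries was left out (adjusted p = 0.0144 to 0.0212) and FOXA2 without replicate 1 of BLSE or either SOX17 + BLSE library (adjusted p = 0.0144 to 0.102). The sort, dexamethasone and SOX17 cannot be told apart at this time. The median of all genes lay at 0.24 in this comparison and moved by -0.24 with median-ratio scaling, under which FOXA2 was no longer called (adjusted p = 0.0139). All 10 cardiac and lateral mesoderm genes were lower in the SOX17 + BLSE cells at 96 h.

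Of the 18 pathway genes, 2 were higher with SOX17 at 48 h and none was lower, with a median of -0.24 beside 0.10 over all genes; FST, which encodes an activin-binding protein, rose by 3.55 and TDGF1 by 1.63. Of the 19 streak and endoderm genes, 4 were higher and 2 were lower, with a median of 0.48, namely PDGFRA at 2.26, TBXT at 2.09, HNF4A at 3.47, HHEX at 1.47, APLNR at -2.0 and EVX1 at -1.16. In the extraembryonic endoderm list, 3 of 13 were higher and 2 lower, with a median of 0.30, among them RSPO3 at 3.78 and COL4A1 at -1.13.

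The effect of BMP4 was read from the SOX17 cultures with and without it. Up to 24 h, BMP4 changed none of the 9 by limma, where 0.277% of all genes changed at 12 h and 2.62% at 24 h. An unadjusted p under 0.05 was reached by 1 and 4 of the 9, with no share of all genes given at that threshold. GSC read 2.18 and 1.67 TPM with and 8.6 and 8.58 TPM without BMP4 at 24 h, -1.72 ± 0.51 (SE, adjusted p = 0.0389). CER1 read 1.3 and 1.04 against 8.63 and 5.74 TPM at 24 h and was lower with BMP4 without the BLSE + IWR1 + BMS pair at 48 h (adjusted p = 0.00113). At 48 h, 7 of the 9 were lower with BMP4 and none was higher, beside 3.4% and 4.61% of all genes. NODAL read 180.4 and 197 TPM without BMP4 and 11.7 and 19.6 TPM with it, a difference of -3.55 ± 0.40 (SE, adjusted p = 3.56e-08). MIXL1 read 219 and 179 against 4.36 and 10.04 TPM, a difference of -4.69 ± 0.67 (SE, adjusted p = 2.9e-06). CER1 stood at 25.04 and 20.97 against 0.35 and 0 TPM, a difference of -4.36 ± 0.93 (SE, adjusted p = 0.000931). Without BMP4, NODAL and MIXL1 at 48 h were above their 12 h levels in both libraries.

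EOMES, at 39.5 and 29.1 TPM without and 3.22 and 5.41 TPM with BMP4, was lower, with a difference of -2.75 ± 0.54 (SE, adjusted p = 0.000369). GSC, at 10.3 and 7.79 against 0.33 and 0.97 TPM, was lower, with a difference of -2.62 ± 0.51 (SE, adjusted p = 0.000275). GATA6, at 308 and 220.3 against 92.1 and 84.3 TPM, was lower, with a difference of -1.55 ± 0.33 (SE, adjusted p = 0.000892), and GDF3, at 821 and 824 against 499 and 502 TPM, had one of -0.71 ± 0.14 (SE, adjusted p = 0.000247). The libraries with and without BMP4 did not overlap for any of these. LHX1, at 4.07 and 4.71 against 0.30 and 0.19 TPM, had a difference of -2.11 ± 0.59 (SE, adjusted p = 0.0119), called without the BLSE + IWR1 + BMS pair at 48 h (adjusted p = 3.28e-06). In that model 8 of the 9 were lower, where 8.24% of all genes changed in either direction. FOXA2 did not pass, at 43.2 and 44.4 against 27.4 and 22.6 TPM, -0.79 ± 0.42 (SE, adjusted p = 0.258). Without 1 library, NODAL, MIXL1 and GDF3 stayed called, and the count of 7 fell to 3 without replicate 1 of SOX17 + LSE. CER1 was lost without that library, replicate 2 of SOX17 + LSE or replicate 2 of SOX17 + BLSE (adjusted p = 0.0103 to 0.0179), EOMES and GSC without it or replicate 1 of SOX17 + BLSE (adjusted p = 0.0128 to 0.018 and 0.0101 to 0.0148) and GATA6 without it or replicate 2 of SOX17 + BLSE (adjusted p = 0.0165 to 0.0378).

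Against the cjESCs, FOXA2 rose in SOX17 + LSE by 2.50 ± 0.42 (SE, adjusted p = 4.01e-05) at 24 h, by 4.91 ± 0.42 (SE, adjusted p = 5.13e-11) at 48 h and by 5.01 ± 0.42 (SE, adjusted p = 4.2e-12) at 96 h, when it read 37.4 and 59.4 TPM. CER1 had fallen there by 48 h, with a difference of -4.03 ± 0.93 (SE, adjusted p = 0.00143), while NODAL did not pass the test, and GATA6 had a difference of 0.92 ± 0.33 (SE, adjusted p = 0.0427). Without the BLSE + IWR1 + BMS pair, CER1 was lower at 12 h (adjusted p = 9.23e-08), NODAL at 24 h and 48 h (adjusted p = 0.00449 and 0.00734), and MIXL1 and EOMES at 24 h (adjusted p = 0.00159 and 0.00298). The call of CER1 was lost without replicate 2 of the cjESCs or either SOX17 + LSE library (adjusted p = 0.0125 to 0.0241).

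The effect of BMP4 differed between 48 h and 12 h for 2 of the 9, where 1.26% of all genes differed. For NODAL the difference of effects was -3.0 ± 0.57 (SE, adjusted p = 0.00133) and for MIXL1 -4.18 ± 0.95 (SE, adjusted p = 0.00826). EOMES followed at -2.81 ± 0.77 (SE, adjusted p = 0.0343), past the threshold, as was CER1, without the BLSE + IWR1 + BMS pair at 48 h (adjusted p = 0.00178 and 3.26e-05). NODAL lost this call without replicate 1 of SOX17 + BLSE at 12 h or 48 h or replicate 2 of SOX17 + LSE at 12 h (adjusted p = 0.0115 to 0.0207), and MIXL1 whichever of the 8 libraries was left out (adjusted p = 0.0109 to 0.0758). At 96 h, in cells sorted in both cultures, 4 of the 9 were lower with BMP4, beside 4.55% of all genes. FOXA2 read 37.4 and 59.4 TPM without and 6.36 and 7.51 TPM with BMP4, a difference of -2.60 ± 0.42 (SE, adjusted p = 3.28e-05). GATA6, at 37.6 and 55.5 against 8.54 and 13.97 TPM, was lower, with a difference of -1.97 ± 0.33 (SE, adjusted p = 5.59e-05). Both endoderm factors were thus higher without BMP4 at 96 h. NODAL was lower, with a difference of -1.70 ± 0.40 (SE, adjusted p = 0.00317), and EOMES had one of -2.36 ± 0.54 (SE, adjusted p = 0.00245), while GSC, at 12.01 and 11.04 against 2.61 and 2.37 TPM, had a difference of -1.84 ± 0.51 (SE, adjusted p = 0.0117) and was lower without the BLSE + IWR1 + BMS pair at 48 h (adjusted p = 0.00422). The calls of NODAL and EOMES were lost whichever of the 4 libraries was left out (adjusted p = 0.0108 to 0.0634 and 0.014 to 0.0375). In the same comparison, 8 of the 13 extraembryonic endoderm genes were lower with BMP4 and none was higher, with a median of -1.20 beside -0.02 over all genes, among them TTR at -3.22 and RSPO3 at -2.50, and their part in the result was not tested.

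Of the 18 pathway genes, 2 were higher with BMP4 at 48 h, BAMBI at 1.76 and SMAD7 at 1.16, and 3 were lower, DACT2 at -1.65, FOXH1 at -1.42 and TGIF1, a corepressor, at -1.29. Their median was -0.18 beside 0.0012 over all genes. Of the 19 streak and endoderm genes, 1 was higher, DKK1 at 2.28, and 3 were lower, FGF8 at -2.24, SHH at -2.20 and TBXT at -1.65, with a median of -0.29.

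**Figure D3:**
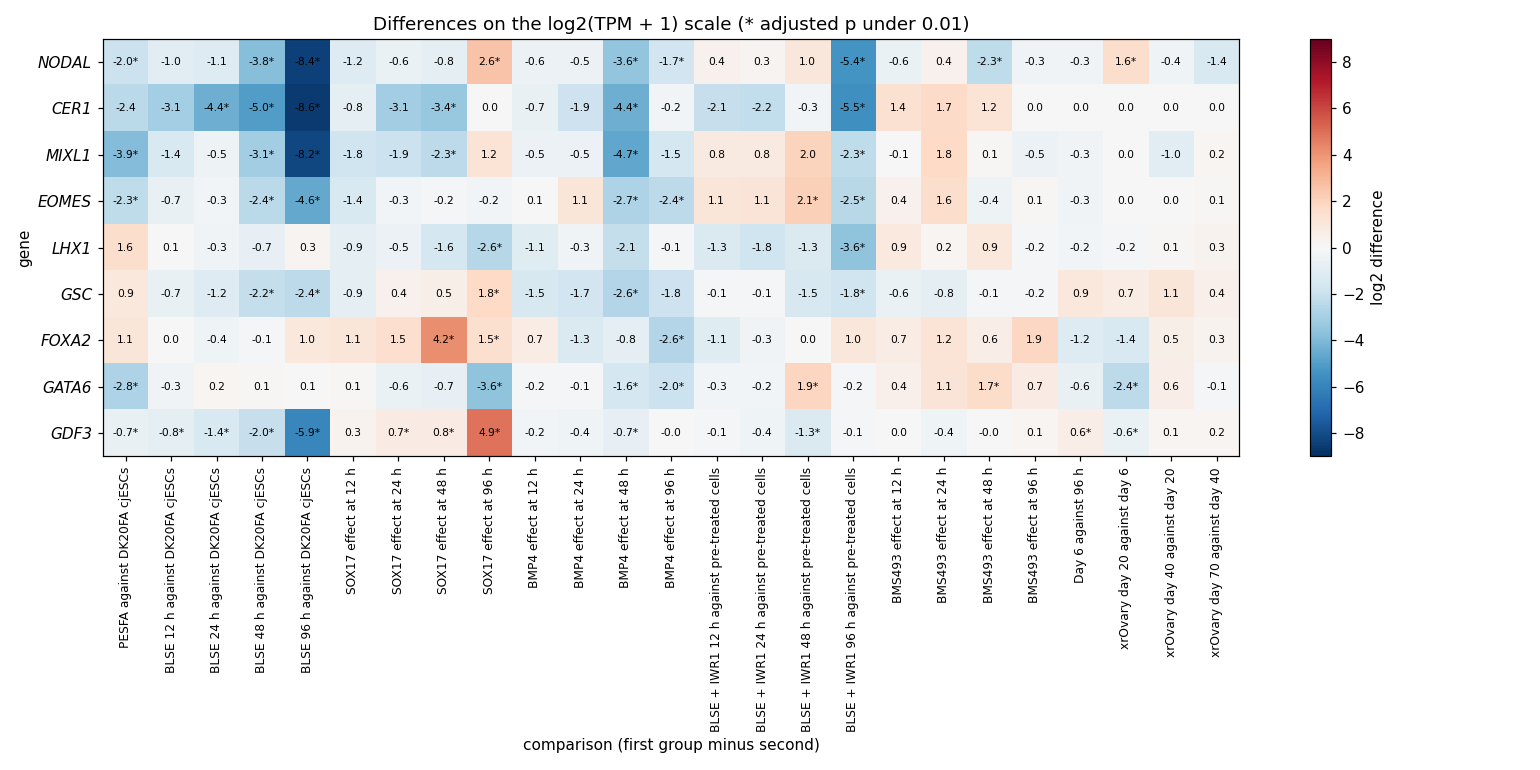
Differences of the 9 genes (rows) in 25 comparisons (columns), first group minus second, on the log2(TPM + 1) scale, with red for higher, blue for lower and a star for an adjusted p under 0.01. The BMP4 effect at 48 h holds 7 stars, all blue, and the BMS493 effect at 24 h holds none.

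Under IWR1, EOMES and GATA6 were above the pre-treated cells at 48 h and NODAL was not below them. At 12 h and at 24 h in BLSE + IWR1, none of the 9 differed from the pre-treated cells by limma, where 6.79% and 9.46% of all genes did. An unadjusted p under 0.05 was reached by 3 and 4 of the 9, with no share of all genes given at that threshold. The NODAL pair was split at 12 h, at 326 and 120.1 TPM. Without the BLSE + IWR1 + BMS pair at 48 h, CER1 was lower at 12 h and 24 h (adjusted p = 0.000157 and 3.88e-05), and so was LHX1 (adjusted p = 0.00283 and 4.13e-05). At 48 h, 2 genes were higher and 1 was lower, beside 9.98% and 9.27% of all genes. EOMES rose from 6.97 and 5.2 TPM in the pre-treated cells to 25.6 and 34.3 TPM, by 2.12 ± 0.54 (SE, adjusted p = 0.00283). GATA6 rose from 17.6 and 15.1 to 57.3 and 74.5 TPM, by 1.94 ± 0.33 (SE, adjusted p = 2.02e-05). GDF3 was the gene that fell, to 322 and 307 TPM, with a difference of -1.28 ± 0.14 (SE, adjusted p = 2.96e-09). EOMES lost its call without either pre-treated library or replicate 2 of BLSE + IWR1 (adjusted p = 0.0109 to 0.0399).

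NODAL stood at 313 and 307 TPM in BLSE + IWR1 at 48 h, above both pre-treated libraries, with a difference of 1.0 ± 0.40 (SE, adjusted p = 0.0585). MIXL1, at 68.3 and 78.8 against 17.97 and 17.9 TPM, differed by 1.97 ± 0.67 (SE, adjusted p = 0.0241). Without the BLSE + IWR1 + BMS pair, MIXL1 rose (adjusted p = 0.000603), LHX1 fell (adjusted p = 0.000946) and 5 of the 9 changed, beside 19.5% of all genes. GSC differed by -1.46 ± 0.51 (SE, adjusted p = 0.0272). Fibroblast feeder genes summed to 2539.73 and 4889.51 TPM in the pre-treated cells and to 108.64 and 108.73 TPM at 48 h, with 7 of the 8 lower, and their part in these differences was not tested. The pre-treated cells had been plated on fibronectin, and the same genes summed to 1839.93 and 1172.26 TPM in BLSE at 96 h. Whether such sums come from feeder cells was not tested. Of the 18 pathway genes, 4 rose and 5 fell, with BAMBI at 3.20, SMAD7 at 1.25 and INHBA at -5.41 among them, and a median of -0.33 beside 0.04 over all genes. Of the 19 streak and endoderm genes, 11 rose and 1 fell, with a median of 1.47; EVX1 rose by 4.22, CHRD by 2.43, GATA5 by 2.39 and WNT3 by 2.04, and PDGFRA fell by 1.80.

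The course to 48 h was compared with that in BLSE without IWR1, each from its own start. The difference of the changes was past the threshold for 6 of the 9, all more positive in BLSE + IWR1, beside 6% of all genes. It came to 4.84 ± 0.57 (SE, adjusted p = 4.26e-08) for NODAL and 5.10 ± 0.95 (SE, adjusted p = 0.000133) for MIXL1. For EOMES it was 4.56 ± 0.77 (SE, adjusted p = 3.08e-05) and for CER1 4.74 ± 1.32 (SE, adjusted p = 0.0085). GATA6 and GDF3 had smaller ones, of 1.85 ± 0.47 (SE, adjusted p = 0.00376) and 0.76 ± 0.19 (SE, adjusted p = 0.00385). NODAL, MIXL1 and EOMES kept the call whichever of the 8 libraries was left out and CER1 lost it whichever was left out (adjusted p = 0.011 to 0.0489). GATA6 lost it without replicate 2 of the cjESCs, of the pre-treated cells or of BLSE + IWR1 or either BLSE library (adjusted p = 0.0121 to 0.0228), and GDF3 without replicate 1 of the cjESCs or of BLSE + IWR1 or replicate 2 of BLSE or of the pre-treated cells (adjusted p = 0.0151 to 0.0433). Since the 2 courses differ in IWR1, in the line, in the medium and in the pre-treatment, these cannot be told apart.

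Level against level at 48 h, 3 of the 9 were higher and 1 lower in BLSE + IWR1 than in BLSE, beside 11.2% and 10% of all genes. NODAL read 313 and 307 against 26.8 and 29.3 TPM, higher by 3.42 ± 0.40 (SE, adjusted p = 2.49e-08), and EOMES 25.6 and 34.3 against 4.28 and 5.37 TPM, higher by 2.40 ± 0.54 (SE, adjusted p = 0.000725). FOXA2, at 1.83 and 4.16 against 0 and 1.02 TPM, was called at 1.43 ± 0.42 (SE, adjusted p = 0.00883). GATA6, at 57.3 and 74.5 against 148 and 144 TPM, was lower, with a difference of -1.15 ± 0.33 (SE, adjusted p = 0.00707). EOMES and FOXA2 lost their calls without replicate 1 of BLSE or replicate 2 of BLSE + IWR1 (adjusted p = 0.0122 to 0.0124 and 0.141 to 0.193), and GATA6 whichever of the 4 libraries was left out (adjusted p = 0.0121 to 0.0763). CER1, at 26.9 and 52.5 against 16.2 and 7.48 TPM, was higher without the BLSE + IWR1 + BMS pair (adjusted p = 0.00071).

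In the sorted BLSE + IWR1 cells at 96 h, 6 of the 9 were lower than in the pre-treated cells and none was higher, beside 17.4% and 22.7% of all genes. NODAL read 3.04 and 2.38 TPM, a difference of -5.39 ± 0.40 (SE, adjusted p = 1.25e-13), and CER1 was listed at 0 in both libraries. LHX1, at 0.17 and 0.50 TPM, was lower, with a difference of -3.63 ± 0.59 (SE, adjusted p = 3.19e-06). FOXA2 did not pass, at 5.74 and 7.67 against 3.81 and 1.92 TPM, 1.03 ± 0.42 (SE, adjusted p = 0.0413).

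BMS493 was compared with BLSE + IWR1 alone at each time, and at 48 h its 2 libraries stood apart. At 12 h, none of the 9 changed by limma, beside 0% of the 11197 genes, and none of the 9 reached an unadjusted p of 0.05. At 24 h, none of the 9 changed, where 0.0893% of all genes did. Of the 9, 5 had an unadjusted p under 0.05 in limma, a threshold at which the share of all genes is not given. EOMES stood at 48.99 and 43.4 TPM with BMS493 and 14.6 and 14.4 TPM without, 1.61 ± 0.54 (SE, adjusted p = 0.347). MIXL1 stood at 149 and 84.4 against 32.97 and 31.6 TPM, 1.77 ± 0.67 (SE, adjusted p = 0.499). For both factors the libraries with BMS493 lay above those without. CER1 had 41.1 and 24.4 against 8.64 and 9.43 TPM, 1.71 ± 0.93 (SE, adjusted p = 0.868). GATA6, at 35.1 and 28.2 against 14.7 and 12.8 TPM, and FOXA2, at 7.07 and 5.31 against 2.55 and 1.59 TPM, did not overlap either. Their differences were 1.14 ± 0.33 (SE, adjusted p = 0.168) and 1.23 ± 0.42 (SE, adjusted p = 0.368). Against the pre-treated cells, EOMES and MIXL1 had risen at 24 h with BMS493, by 2.74 ± 0.54 (SE, adjusted p = 0.000256) and 2.58 ± 0.67 (SE, adjusted p = 0.00497), beside 6.89% of all genes, and GDF3 had fallen. LHX1 was lower without the BLSE + IWR1 + BMS pair at 48 h (adjusted p = 0.000133). The rise of MIXL1 was lost whichever of the 4 libraries was left out (adjusted p = 0.0137 to 0.0814). The streak list held 1 gene of 19 that rose with BMS493 at 24 h, EVX1 by 1.71.

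**Figure D4:**
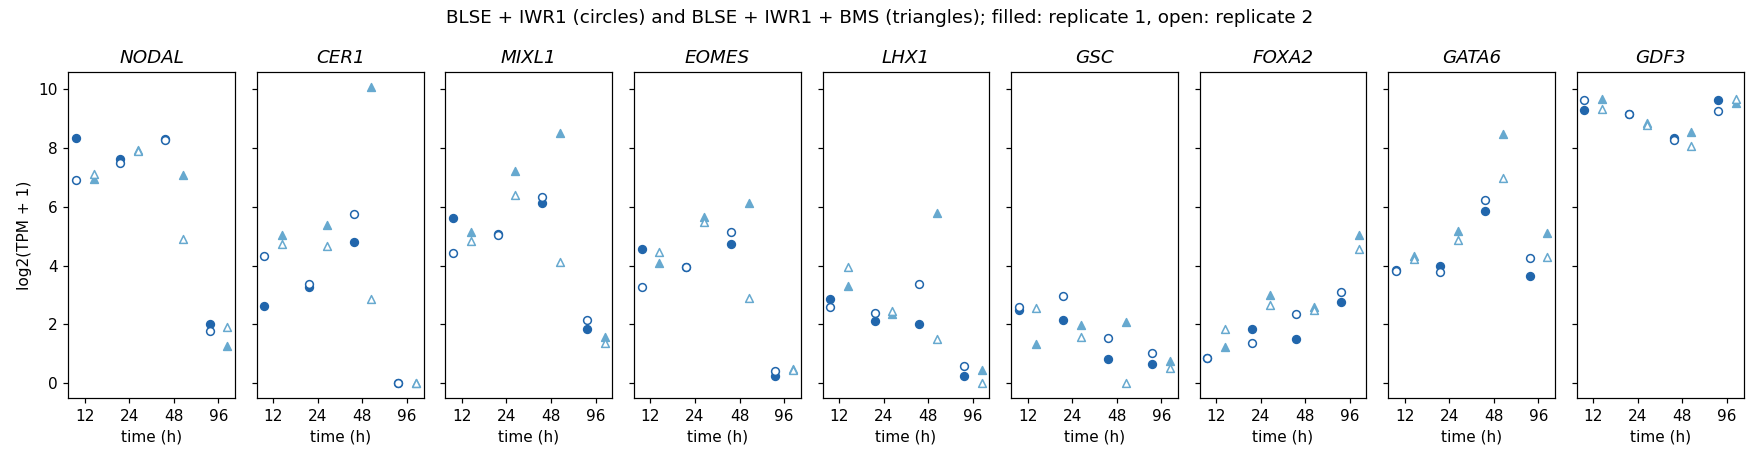
The 9 genes in BLSE + IWR1 (circles) and BLSE + IWR1 + BMS (triangles) at 12, 24, 48 and 96 h, as log2(TPM + 1), with replicate 1 filled and replicate 2 open. At 48 h with BMS493, the gap within the pair is over 4-fold for 6 of the 9 genes, with replicate 1 above replicate 2 in each.

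At 48 h with BMS493, replicate 1 was above replicate 2 for all 9 genes. That direction was also shared by all 9 in SOX17 + BLSE at 12 h and in SOX17 + LSE at 24 h. CER1 read 1089 TPM in replicate 1 and 6.25 TPM in replicate 2, a gap of 7.23 on the log2 scale that was the largest of the 11197 genes. MIXL1 read 361 and 16.4 TPM, a gap of 4.38, rank 4. LHX1 read 53.9 and 1.84 TPM, rank 5. The antagonist CER1 and the homeobox factors MIXL1 and LHX1 thus stood among the genes that split this pair the most. EOMES read 68.3 and 6.52 TPM, rank 9, and NODAL 136 and 29.03 TPM, rank 32. GSC read 3.21 TPM and was listed at 0, rank 38. GATA6 read 354 and 126 TPM, rank 121, and GDF3 369.7 and 266 TPM, while FOXA2 was nearly equal at 4.96 and 4.66 TPM.

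Over all genes the pair was much alike. Its values correlated at 0.986, and 46 genes, or 0.411%, lay over 4-fold apart, 41 of them higher in replicate 1 and 6 of them among the 9. In the other 26 pairs, no more than 1 of the 9 was over 4-fold apart, and only the pair of xrOvaries at day 20, with 113 genes, had more genes that far apart. Among genes outside the 9, seen in the values, replicate 1 was higher for ZIC2 (127 and 5.88 TPM) and for the streak genes FGF8 (21.7 and 2.33 TPM) and TBXT (269 and 71.2 TPM). In the same list it was lower for GATA5 (2.06 and 7.13 TPM) and DKK1 (21.56 and 29.41 TPM). Of these 19 streak and endoderm genes, 2 were over 4-fold higher in replicate 1 and 0 over 4-fold lower, with a median gap of 0.33. Replicate 1 was lower for the germ cell genes SOX17 (50.5 and 100.1 TPM), TFAP2C (96.5 and 216 TPM) and NANOS3 (9.85 and 24.01 TPM), but higher for the germ cell gene DPPA3 (38.97 and 18.85 TPM), and PDPN was near equal (184 and 196 TPM). In the feeder list DCN was lower in replicate 1 (24.6 and 193 TPM) and THY1 higher (5.52 and 3.59 TPM). Of the other conditions, replicate 1 correlated best with the mean of BLSE + IWR1 + BMS at 24 h (0.981) and replicate 2 with that of BLSE + IWR1 at 48 h (0.979), over genes, which are not independent, and the leading values differ little.

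With both libraries, 1 of the 9 genes was lower with BMS493 at 48 h and 1 higher, beside 1.96% and 2.87% of all genes. NODAL was lower, with a difference of -2.28 ± 0.40 (SE, adjusted p = 0.000233) from BLSE + IWR1 alone, where it read 313 and 307 TPM, and both BMS493 libraries lay under both others. GATA6 was higher by 1.68 ± 0.33 (SE, adjusted p = 0.000807), against 57.3 and 74.5 TPM without BMS493. CER1 had a difference of 1.20 ± 0.93 (SE, adjusted p = 0.441). With replicate 1 of BMS493 alone, the differences were 4.82 for CER1, 2.28 for MIXL1, 1.18 for EOMES, 3.08 for LHX1, 2.42 for GATA6 and -1.18 for NODAL. With replicate 2 alone, they were -2.41 for CER1, -2.10 for MIXL1, -2.03 for EOMES, -1.20 for LHX1, 0.93 for GATA6 and -3.37 for NODAL. The differences of CER1, MIXL1, EOMES, LHX1, GSC and GDF3 thus turned their direction with the library. Without replicate 1 of BLSE + IWR1, 1 gene was called, NODAL, and GATA6 had an adjusted p of 0.0172. From the pre-treated cells, GATA6 rose by 3.62 ± 0.33 (SE, adjusted p = 5.4e-11) with BMS493. The change in the BMS493 effect on NODAL from 24 h to 48 h was -2.65 ± 0.57 (SE, adjusted p = 0.038) and did not pass, where 0.00893% of all genes did. With single libraries left out, that change ran from -3.74 to -1.55.

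At 48 h the extraembryonic endoderm list had 3 of 13 genes higher with BMS493, RSPO3 at 2.06, COL4A1 at 1.33 and COL4A2 at 1.14, with a median of 0.48 beside 0.03 over all genes. The streak list had 2 of 19 higher, APLNR at 3.17 and PDGFRA at 1.87, and 1 lower, FGF8 at -2.17, with a median of 0.10. The pathway list had 1 of 18 higher, ACVR1B at 1.18, and 1 lower, TDGF1 at -0.94, with a median of 0.26.

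At 96 h, in sorted cells, none of the 9 was changed by BMS493 in limma, where 0.732% of all genes were. An unadjusted p under 0.05 was reached by 2 of the 9, with no share of all genes given at that threshold. FOXA2 read 31.9 and 22.9 TPM with BMS493 and 5.74 and 7.67 TPM without. Its difference of 1.87 ± 0.42 (SE, adjusted p = 0.0112) was just outside the threshold and passed it with median-ratio scaling (adjusted p = 0.00624) and with quantile normalization (adjusted p = 0.00435). GATA6, at 33.1 and 18.7 against 11.6 and 18.02 TPM, had a difference of 0.74 ± 0.33 (SE, adjusted p = 0.258). From the pre-treated cells, FOXA2 had risen by 2.90 ± 0.42 (SE, adjusted p = 4.81e-07) with BMS493, the one rise among 7 changes of the 9, beside 38% of all genes.

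At day 6 and in the xrOvary, CER1 and EOMES were listed at 0.19 TPM or less, and the lowest GDF3 library read 677 TPM. Against 96 h, only GDF3 changed at day 6, where 2.75% of all genes did; it read 1058 and 1102 TPM after 801 and 614 TPM, a rise of 0.62 ± 0.14 (SE, adjusted p = 0.0036), lost without replicate 2 of 96 h or either day 6 library (adjusted p = 0.0321 to 0.18). Against the PESFA cjESCs, 6 of the 9 were lower at day 6 and 1 was higher, beside 20% and 24.9% of all genes. LHX1, at 0.11 and 0.16 TPM, was lower, with a difference of -4.0 ± 0.59 (SE, adjusted p = 4.44e-07), and GATA6, at 6.81 and 11.6 TPM, had one of -1.02 ± 0.33 (SE, adjusted p = 0.00893). GDF3 was the gene that was higher, by 0.50 ± 0.14 (SE, adjusted p = 0.00231), a call lost with median-ratio scaling (adjusted p = 0.123) and without replicate 2 of PESFA or either day 6 library (adjusted p = 0.011 to 0.0676). GATA6 lost its call without either PESFA library or replicate 1 of day 6 (adjusted p = 0.0235 to 0.169). GSC was lower without the BLSE + IWR1 + BMS pair at 48 h (adjusted p = 0.00426). CER1 and EOMES were listed at 0 in both day 6 libraries.

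From day 6 to day 20 in the xrOvary, 1 of the 9 rose and 2 fell, beside 6.56% and 13.8% of all genes. GATA6 went from 6.81 and 11.6 to 0.49 and 1.49 TPM, a difference of -2.36 ± 0.33 (SE, adjusted p = 6.12e-07). NODAL went from 2.72 and 1.29 to 6.31 and 9.18 TPM, a rise of 1.56 ± 0.40 (SE, adjusted p = 0.00276), still under 10 TPM. GDF3 fell by 0.61 ± 0.14 (SE, adjusted p = 0.000663) to 736 and 677 TPM. FOXA2 had a difference of -1.40 ± 0.42 (SE, adjusted p = 0.0105). Without replicate 2 of day 6, or without replicate 2 of day 20, 1 of the 9 changed, GATA6, and NODAL (adjusted p = 0.0524 to 0.0742) and GDF3 (adjusted p = 0.0116 to 0.0165) did not. Without replicate 1 of day 20, FOXA2 was called as well (adjusted p = 0.00839). From day 20 to 40 and from day 40 to 70, none of the 9 changed in limma, where 4.6% and 2.73% of all genes did. An unadjusted p under 0.05 was reached by 1 of the 9 in each, with no share of all genes given at that threshold. NODAL read 1.75 and 1.37 TPM at day 70, -1.37 ± 0.40 (SE, adjusted p = 0.0373) from day 40, and passed without the BLSE + IWR1 + BMS pair at 48 h (adjusted p = 0.00434). GSC read 5.28 and 3.72 TPM at day 20, 10.3 and 10.7 at day 40 and 13.2 and 16.3 at day 70. The 10 gonadal somatic genes summed to between 0.49 and 9.7 TPM in the xrOvary libraries, with 3 to 8 of them at 0.

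Of the 18 pathway genes, 1 rose and 5 fell on entry to the xrOvary, DACT2 at 1.69 against BAMBI at -2.28, SMAD7 at -1.76, TGIF1 at -1.49 and PCSK6 at -1.03 among them, with a median of -0.32 beside -0.08 over all genes. None of the 19 streak and endoderm genes rose and 6 fell, among them CHRD at -2.33, EVX1 at -2.31 and WNT3 at -1.68, with a median of -0.85.

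Over the 27 conditions, the 9 genes fell into different orders. NODAL was highest in the DK20FA cjESCs, at 414 ± 33.8 TPM (SD, n = 2), then in BLSE + IWR1 at 48 h, at 310 ± 4.39, neither of which overlapped the next. The split pair of BLSE + IWR1 at 12 h, rank 4, spanned the libraries of BLSE + IWR1 at 48 h, at 120.07 and 325.56 TPM. From BLSE + IWR1 + BMS at 24 h, the third, down to SOX17 + BLSE at 48 h each condition overlapped its neighbour, and the lowest was BLSE at 96 h, at 0.23 ± 0.014. Of its 26 neighbouring pairs in that order, 21 overlapped. MIXL1 was also highest in the DK20FA cjESCs, at 339 ± 18.8 TPM, and lowest in BLSE at 96 h, with 20 of 26 pairs overlapping. GDF3 had the clearest order, with 17 of 26 pairs overlapping, from 1210 ± 69.4 TPM in the DK20FA cjESCs to 19.5 ± 1.15 in BLSE at 96 h. EOMES had the least clear one, with 25 of 26, from 46.2 ± 3.97 TPM in BLSE + IWR1 + BMS at 24 h to 0 in 3 conditions. CER1 was listed at 0 in both libraries of 8 conditions, and its highest mean, 547 ± 765 TPM in BLSE + IWR1 + BMS at 48 h, overlapped the second, the DK20FA cjESCs. LHX1 peaked in that same split pair, at 27.9 ± 36.8 TPM, and overlapped the PESFA cjESCs. FOXA2 was highest in SOX17 + LSE at 96 h, at 48.4 ± 15.5 TPM, overlapping SOX17 + LSE at 48 h. GATA6 was highest in SOX17 + LSE at 48 h, at 264 ± 62.2 TPM, and lowest in the xrOvary at day 20, at 0.99 ± 0.71. GSC had its highest mean in the xrOvary at day 70, at 14.8 ± 2.18 TPM, within the span of the split PESFA pair.

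The means over the 27 conditions, which share libraries, line and time courses, were correlated as a description. MIXL1 and EOMES went together at 0.936, NODAL and MIXL1 at 0.921, NODAL and EOMES at 0.920 and NODAL and CER1 at 0.840. Among NODAL, CER1, MIXL1 and EOMES, every pair lay between 0.785 and 0.936. LHX1 followed CER1 at 0.830, GATA6 followed MIXL1 at 0.666, GDF3 correlated with NODAL at 0.298 and with GSC at 0.530, FOXA2 with none of the others above 0.186, and GSC ran against GATA6 at -0.431. Among all genes with a symbol, the 3 most like NODAL were KCNMB2 at 0.949, LSM6 at 0.934 and AKNAD1 at 0.931. Those most like MIXL1 were IRS2 at 0.948, EOMES and NODAL. Most like EOMES were LMNB1 at 0.941, MIXL1 and RXFP3 at 0.933, and most like CER1 were TES at 0.910, DENR at 0.901 and YWHAH at 0.893. LHX1 had SHC1 at 0.934, DDAH1 at 0.921 and TARS1 at 0.912, GATA6 had STEAP1 at 0.961, APOBEC2 at 0.941 and RHPN2 at 0.938, and FOXA2 had CTSD at 0.921, DENND2D at 0.862 and SLC39A5 at 0.861. GSC had the least close ones, FABP3 at 0.860, RAB6B at 0.858 and CHTOP at 0.856. GDF3 had NANOG at 0.899, SPOCK1 at 0.895 and DPPA5 at 0.887.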

How the data were processed

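RNA was measured in 54 libraries of 27 conditions, each in biological duplicate per the labels and the study's methods, so p-values measure the spread between such cultures of 1 parental line. The authors deposited TPM values, obtained from poly(A) single-end reads with STAR alignment and RSEM quantification, for 14812 genes shared by marmoset and human. The TPM of each library were log2-transformed after adding 1, and genes at 1.5 or more in at least 1 library were kept. No counts were used, so the depth behind a value is unknown. One mean per condition was fitted to all libraries in limma 3.58.1 (R 4.3.3) with an intensity trend, which leaves 27 residual degrees of freedom, and 43 contrasts and 4 differences between contrasts were drawn from that model, each adjusted by Benjamini-Hochberg over the genes tested, with no adjustment across contrasts. The genes named are the members of the list and, of the other lists, those past the threshold. The members and lists were chosen with earlier results of these data known. Alternatives were another pseudocount, no filter, median-ratio scaling, quantile normalization, no trend, only the libraries compared, a 4-fold rule, a block for the replicate number, and leaving out each library. The model without the BLSE + IWR1 + BMS libraries at 48 h, and leaving out libraries in the differences between contrasts, were added after seeing the data. On simulated data of the size of the BMS493 comparison at 24 h, with 11197 genes, 199 of 200 genes changed 8-fold were recovered and 1 of 10997 unchanged genes was called. The changed genes were drawn only from higher levels in BLSE + IWR1 at 24 h than those of LHX1, GSC and FOXA2 (mean log2 of 2.25, 2.56 and 1.60). Each gene was given the same spread in every condition, unlike the data. Changes smaller than 8-fold were not simulated. The differences of the followed genes in that comparison were all smaller, the largest being 1.77 on the log2 scale for MIXL1. Whether differences of that size would be recovered was therefore not tested.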

Additional observations from a re-analysis of the deposited data

Results flagged for a closer look

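For 9 results, the effect of a treatment or course differed between times or cultures by limma's test of the difference itself. The effect of SOX17 on FOXA2 was larger at 48 h than at 12 h, by 3.12 ± 0.60 (SE, adjusted p = 0.000946) on the log2 scale. Dexamethasone, which was added to enforce SOX17, cannot be told apart from SOX17 here. The effect of BMP4 was more negative at 48 h than at 12 h for NODAL, by -3.0 ± 0.57 (SE, adjusted p = 0.00133), and for MIXL1, by -4.18 ± 0.95 (SE, adjusted p = 0.00826). The change to 48 h in BLSE + IWR1 was more positive than that in BLSE for 6 genes: NODAL by 4.84 ± 0.57 (SE, adjusted p = 4.26e-08), CER1 by 4.74 ± 1.32 (SE, adjusted p = 0.0085), MIXL1 by 5.10 ± 0.95 (SE, adjusted p = 0.000133), EOMES by 4.56 ± 0.77 (SE, adjusted p = 3.08e-05), GATA6 by 1.85 ± 0.47 (SE, adjusted p = 0.00376) and GDF3 by 0.76 ± 0.19 (SE, adjusted p = 0.00385). Their part due to the line, the medium and the pre-treatment cannot be told apart from that of IWR1. No group had the 4 samples that a test for a lone outlying sample needs.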

How the results depend on the processing

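The number of the 9 genes past the threshold depended most on how the spread was estimated. With only the libraries compared, where the spread comes from 4 libraries, the count fell from 6 to 3 in BLSE at 48 h and to 0 for PESFA against DK20FA (from 5), SOX17 at 48 h (from 4), BMP4 at 48 h (from 7), BLSE + IWR1 at 48 h (from 3), BMS493 at 48 h (from 2) and day 20 against day 6 (from 3). With a 4-fold rule it was 3 for PESFA against DK20FA and 1 each for BLSE + IWR1 at 48 h, BMS493 at 48 h and day 20. SOX17 at 48 h gave 2 with no filter on low values and 2 with no intensity trend, and BMS493 at 96 h gave 1 with median-ratio scaling and 1 with quantile normalization. BLSE + IWR1 at 48 h gave 5 without the BLSE + IWR1 + BMS libraries at 48 h, where 19.5% of all genes changed. Leaving out each library in turn gave 2 to 5 for PESFA against DK20FA, 5 in BLSE at 48 h, 2 for SOX17 at 48 h, 3 to 6 for BMP4 at 48 h, 2 to 3 for BLSE + IWR1 at 48 h, 1 to 4 for BMS493 at 48 h, and 1 to 4 for day 20. The cause was not tested. The difference of CER1 with BMS493 at 48 h ran from -2.41 to 4.82, and was -2.41 without replicate 1 of BLSE + IWR1 + BMS. MIXL1, EOMES, LHX1, GSC and GDF3 also had opposite directions with either of those libraries alone.

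Over the 423 tests of the 9 genes, 137 were called. The numbers called, and those shared with the 137, were 124 and 116 with a pseudocount of 0.1, 122 and 122 with no filter, 135 and 132 with median-ratio scaling, 132 and 130 with quantile normalization and 122 and 122 with no trend, and no sign changed. Samples of the same replicate number share only that number: their deviations correlated from -0.21 to 0.289, and a replicate block gave 138 calls, all 137 among them. Without the BLSE + IWR1 + BMS libraries at 48 h, 165 of 396 tests were called against 133 of the same tests with them, all 133 among the 165. Scaling moved the median of all genes by over 0.1 in 9 comparisons. With median-ratio scaling the shift was -0.24 for SOX17 at 96 h and -0.106 at 24 h, -0.204 and -0.179 for BLSE + IWR1 at 96 h against BLSE and the pre-treated cells, -0.164 for day 6 against PESFA, -0.144 and -0.152 for SOX17 + BLSE and SOX17 + LSE at 96 h against the cjESCs and -0.109 for BLSE + IWR1 + BMS at 24 h against the pre-treated cells. With quantile normalization it reached -0.202 for SOX17 at 96 h and was 0.126 for day 20. Without counts, the limit that depth sets on the low genes is unknown.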
